A study of Homo sapiens with 9 samples.

Results

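Tensins and the proteins they meet in focal adhesions were followed in the Ewing sarcoma cell line TC-32, whose tumour type is driven by the EWSR1::FLI1 fusion. The members are 10 genes chosen by symbol: the 4 tensins TNS1, TNS2, TNS3 and TNS4, the kinase gene PTK2, the scaffolds PXN and BCAR1, the actin linkers TLN1 and VCL, and ILK. All 10 were found among the 58381 genes of the deposited tables, and all 10 passed the filter on low counts that left 17235 genes to test. The question was which genes respond to the transcription factor ETS1 in cells that still make the fusion. RNA-seq libraries were made from cells carrying the pLOC lentiviral vector with RFP (a red fluorescent protein, the control), and from cells carrying pLOC with an ETS1 cDNA at a lower (ETS1-Low) or a higher level (ETS1-High), with 3 libraries in each of the 3 groups. The ETS1-High level is described as like that of cells depleted of the fusion. All groups are TC-32 cells that keep EWSR1::FLI1, and the labels describe lentiviral transduction, puromycin selection and sorting of single cells. The ETS1 cells are described as single cell clones, and whether the RFP cells are a clone is not stated. The number of clones behind each group is not given, so the level of ETS1 and differences between clones cannot be told apart. Nothing in the labels says that libraries of a group came from separate cultures, so p-values measure the spread between these libraries, which may be technical.

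Focal adhesions are the sites where integrins in the cell membrane hold on to the extracellular matrix outside and to actin filaments inside. Talin binds the tails of integrins and switches them on, vinculin strengthens the bond between talin and actin, and integrin-linked kinase works as a scaffold with its partners PINCH and parvin. Focal adhesion kinase, paxillin and the CAS scaffold pass on the signal. Tensins bind integrin tails and actin and mark the older, more central adhesions, and cells can exchange one tensin for another.

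The libraries held between 39484704 and 46654734 expected counts, and the labels give no batch. ETS1 itself had 1.81 to 2.15 CPM (counts scaled to library size, with TMM normalisation) in RFP, with 10.3 to 10.9 CPM for ETS1-Low and 18.2 to 19.7 CPM for ETS1-High, so its level followed the labels without overlap; reads of the introduced cDNA and of the cells' own gene cannot be told apart. All 8 of the Ewing sarcoma markers looked up, such as CD99 and NKX2-2, were at or above 1 FPKM (fragments scaled to gene length and library size) in every library. Their summed level was not equal between groups, at 1020 to 1041 FPKM in RFP, 1348 to 1364 in ETS1-Low and 1396 to 1408 in ETS1-High. Of 7 epithelial markers, EPCAM, CDH1, KRT19, CLDN4 and ESRP1 were below 1 FPKM in every library, while the summed level of all 7, mostly the keratin gene KRT18, ran from 65.0 to 66.9 FPKM in RFP, 117.1 to 123.4 in ETS1-Low and 83.2 to 84.3 in ETS1-High. Of 6 haematopoietic markers, PTPRC, CD3E and LAPTM5 were among those below 1 FPKM in every library, and the sum over all 6, with CORO1A and CD14, was 3.08 to 3.89, 1.03 to 1.12 and 1.42 to 2.33 FPKM in the same order. Of 8 fibroblast markers, COL1A2, LUM, DCN and FAP were below 1 FPKM in every library, while the summed level of all 8 ran from 117.9 to 122.3 FPKM in RFP, 77.1 to 78.7 in ETS1-Low and 110.0 to 114.2 in ETS1-High. That sum hides opposite changes from RFP to ETS1-High. Mean FPKM went from 54.9 to 9.37 for THY1 and 20.6 to 5.81 for PDGFRB, but from 35.3 to 84.5 for COL3A1 and 9.49 to 10.5 for COL1A1. The part of these markers in the results was not tested.

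Among the tensins, TNS3 was about 5 times higher in ETS1-High than in the other groups, while TNS1 and TNS2 were lower in both ETS1 groups than in RFP. The start regions of TNS3 are shown because ETS factors bind DNA at the core GGAA. RefSeq (GRCh38.p14) lists 3 start sites for TNS3, and the bases printed are the 250 before each, 5′ to 3′ on the minus strand of the gene, with GGAA or its reverse complement TTCC in capitals. The 3 windows hold 0 exonic bases of GENCODE v44.
TNS3 start 1, chr7:47582587-47582836: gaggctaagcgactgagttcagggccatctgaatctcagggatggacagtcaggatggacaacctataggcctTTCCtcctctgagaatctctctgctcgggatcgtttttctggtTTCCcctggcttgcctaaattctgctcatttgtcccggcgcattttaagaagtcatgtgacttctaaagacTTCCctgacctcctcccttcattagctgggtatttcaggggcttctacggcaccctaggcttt
TNS3 start 2, chr7:47582112-47582361: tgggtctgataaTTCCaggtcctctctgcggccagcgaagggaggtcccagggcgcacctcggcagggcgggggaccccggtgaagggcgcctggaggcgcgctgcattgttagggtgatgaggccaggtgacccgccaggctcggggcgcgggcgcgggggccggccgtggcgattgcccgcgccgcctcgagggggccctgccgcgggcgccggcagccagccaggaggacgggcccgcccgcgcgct
TNS3 start 3, chr7:47537473-47537722: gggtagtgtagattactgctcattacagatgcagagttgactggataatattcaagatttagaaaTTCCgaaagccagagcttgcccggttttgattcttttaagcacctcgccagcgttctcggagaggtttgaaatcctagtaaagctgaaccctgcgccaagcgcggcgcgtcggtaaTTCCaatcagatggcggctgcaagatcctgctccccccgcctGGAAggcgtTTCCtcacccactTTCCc
These windows hold 3, 1 and 5 matches to GGAA on either strand. Such a match is common, since 92.7% of all 35116 RefSeq windows of this length hold at least 1, with a median of 3. The longer ETS sequence CCGGAAGT, which contains GGAA, was in 3.4% of all windows and in none of the TNS3 windows on either strand. The doubled core GGAAGGAA, a short stretch of the GGAA repeats that EWSR1::FLI1 binds, was in 3.1% of all windows and also not in these. For 8 of the 10 members RefSeq windows were at hand, 21 in all: 20 held GGAA, 0 held CCGGAAGT and 1, of TNS1, held GGAAGGAA. The files do not say which start site the cells used.

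TNS3 encodes tensin 3, a tensin with an amino-terminal phosphatase-like region and a carboxy-terminal pair of SH2 and PTB domains (ENSG00000136205.16; chromosome 7, 47275154 to 47582558 on GRCh38, minus strand). Its expected counts were 1034, 1061 and 1156 in the RFP libraries, 872, 1041 and 915 in ETS1-Low, and 4720, 5049 and 4673 in ETS1-High. Scaled to depth these were 21.5, 22.6 and 23.7 CPM, 23.1, 23.1 and 22.3 CPM, and 119.8, 112 and 105 CPM. The RFP and ETS1-Low libraries overlapped, and every ETS1-High library lay far above both. TNS3 rose 4.96-fold in ETS1-High against RFP (log2 fold change 2.31, 95% interval 2.22 to 2.40; adjusted p 1.75e-33 by the quasi-likelihood test of edgeR, adjusted over all genes after Benjamini and Hochberg). Against ETS1-Low it rose 4.91-fold (log2 2.30, interval 2.20 to 2.39; adjusted p 1.83e-32, edgeR). Between ETS1-Low and RFP the log2 difference was 0.02 with an interval from -0.09 to 0.12 (adjusted p 0.791, edgeR), so a change beyond about 0.12 in either direction lay outside the interval. Around TNS3, 56 expressed genes start within 10 Mb. They showed log2 medians of -0.05 (ETS1-High against RFP) and 0.02 (ETS1-High against ETS1-Low). TNS3 stood above all 56 in the first comparison and above 55 of them in the second. The exception was IGFBP3, which starts 1.66 Mb from TNS3 and rose by 2.32 there, where TNS3 rose by 2.30. In the first comparison IGFBP3 rose by 2.14, so TNS3 was not alone in its region. Whether the region had a part in both rises was not tested.

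TNS1 encodes tensin 1, the founding member of the family and a strong actin binder (ENSG00000079308.17; chromosome 2, 217799588 to 218033982, minus strand). It had 86.4, 77.8 and 82.4 CPM in RFP, 31.6, 30.8 and 33.1 CPM in ETS1-Low, and 40.8, 38.7 and 36.0 CPM in ETS1-High. The 3 groups did not overlap, with RFP highest and ETS1-Low lowest. TNS1 fell 2.14-fold in ETS1-High against RFP (log2 -1.10, SE 0.04; adjusted p 3.9e-23, edgeR) and 2.58-fold in ETS1-Low against RFP (log2 -1.37, SE 0.04; adjusted p 9.39e-26, edgeR). ETS1-High exceeded ETS1-Low 1.21-fold (log2 0.27, SE 0.05; adjusted p 4.27e-06, edgeR), a difference that did not pass with limma on FPKM without a filter on low values (0.29 on the log2(FPKM + 1) scale, adjusted p 0.0675). Its surroundings went the other way against RFP: the 74 expressed genes within 10 Mb gave medians of 0.58 (ETS1-High) and 0.36 (ETS1-Low). In ETS1-High against ETS1-Low the neighbours' median was 0.28, close to the 0.27 of TNS1 itself.

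TNS2 encodes tensin 2, which carries an extra C1 domain at its amino terminus in some isoforms (ENSG00000111077.17; chromosome 12, 53046969 to 53064379, plus strand). With 82 to 528 counts per library it was measured less precisely than TNS1 and TNS3. Its levels were 10.2, 11.3 and 8.83 CPM in RFP, 2.67, 2.05 and 2.00 CPM in ETS1-Low, and 3.99, 3.45 and 3.85 CPM in ETS1-High. Again RFP was highest and ETS1-Low lowest, with no overlap in CPM. TNS2 fell 4.53-fold in ETS1-Low (log2 -2.18, SE 0.11; adjusted p 4.87e-23, edgeR) and 2.69-fold in ETS1-High (log2 -1.42, SE 0.10; adjusted p 1.23e-17, edgeR) against RFP, while the 188 expressed genes around it had medians of 0.05 and 0.00435. Between ETS1-High and ETS1-Low the counts gave a rise of 0.75 (SE 0.13; adjusted p 1.02e-06, edgeR), and the FPKM values, which are divided by the gene length that RSEM estimates from the mix of isoforms, gave 0.08 (adjusted p 0.559, limma on log2(FPKM + 1), keeping genes whose mean FPKM reached 1). The length implied by count and FPKM was 2955 to 3427 bases in ETS1-High, 1563 to 2325 in ETS1-Low and 2238 to 2622 in RFP. In GENCODE v44, exons of TNS1, TNS2, PXN, BCAR1, VCL and ILK overlap exons on the opposite strand (TNS1-AS1, TNS2-AS1 and SPRYD3, PXN-AS1, AP3M1 for VCL and TAF10 for ILK among them). Whether the counts kept to 1 strand is not stated, so such reads cannot be told apart. BCAR1 and TLN1 each also overlap exons of 1 gene on their own strand (MIR6852 for TLN1), which strand alone would not separate.

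TNS4, also called CTEN, is a short tensin that lacks the amino-terminal part through which the others bind actin (ENSG00000131746.12; chromosome 17, 40475828 to 40501623, minus strand). It was barely expressed, with 23, 18 and 26 counts in RFP, 20, 21 and 23 in ETS1-Low, and 25, 46 and 43 in ETS1-High. These counts are 0.38 to 0.53 CPM, 0.47 to 0.56 CPM and 0.63 to 1.02 CPM. It was 1.88-fold higher in ETS1-High than in RFP (log2 0.91, interval 0.36 to 1.47; adjusted p 0.0027, edgeR). Its difference between ETS1-High and ETS1-Low (log2 0.76, adjusted p 0.0162, edgeR) was no longer called without ETS1-Low replicate 2, ETS1-High replicate 2 or ETS1-High replicate 3 (adjusted p 0.0611, 0.0825 and 0.062). Against RFP, ETS1-Low differed by 0.15 with an interval from -0.45 to 0.75, too wide to place a change at this depth.

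**Figure D1:**
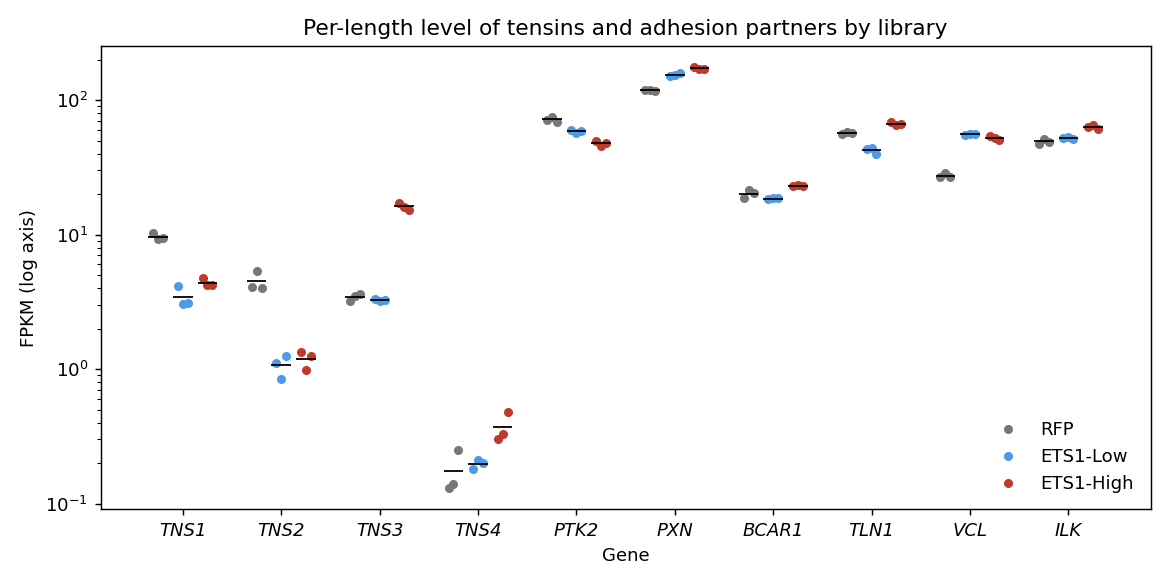
Level of each of the 10 genes in FPKM, which is scaled to gene length, on a log axis; points are libraries in order of replicate within RFP (grey), ETS1-Low (blue) and ETS1-High (red), and black bars are group means. TNS3 stands at 15.2 to 17.3 FPKM in ETS1-High and at 3.18 to 3.63 FPKM in the other libraries, while TNS1 and TNS2 are highest in RFP.

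Because FPKM is scaled to length, it allows levels of different tensins to be compared within a library, as far as the estimated length holds. The length implied for TNS2 ran from 1563 to 3427 bases over the groups, so its shares are less certain. By CPM, not scaled to length, TNS2 held 8.76% of the tensin sum in RFP and TNS3 19.6%, the reverse of their FPKM order. The summed level of the 4 tensins was 17.8 ± 0.52 FPKM in RFP, 7.92 ± 0.72 FPKM in ETS1-Low and 22.1 ± 1.34 FPKM in ETS1-High (SD, n = 3). Within that sum TNS1 led in RFP, with 50.8% to 58.2% per library, followed by TNS2 with 22.9% to 29.3% and TNS3 with 18.1% to 21.0%. In ETS1-Low, TNS1 held 39.6% to 47.4% and TNS3 37.9% to 43.6%, ranges that overlap, and TNS2 held 11.7% to 16.0%. The TNS3 share was higher there than in RFP although its CPM was not, since TNS1 and TNS2 were lower. In ETS1-High, TNS3 held 72.0% to 74.5%, TNS1 19.5% to 20.1% and TNS2 4.54% to 5.91%. TNS4 stayed between 0.73% and 2.88% of the sum in the 9 libraries. The 9 libraries thus differed in which tensin prevailed: TNS1 in each RFP library and TNS3 in each ETS1-High library. The shares are given as a description, with no test.

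**Figure D2:**
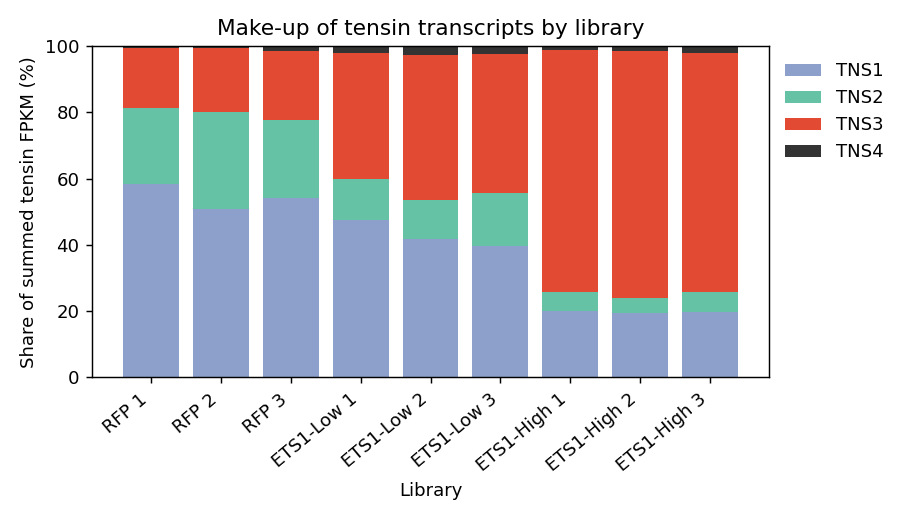
Share of each tensin (colours) in the summed FPKM of TNS1 to TNS4, in percent, one bar for each of the 9 libraries. The TNS3 part grows from 18.1% to 21.0% in RFP through 37.9% to 43.6% in ETS1-Low to 72.0% to 74.5% in ETS1-High.

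Across the 10 members, all 10 were called in ETS1-High against RFP at an adjusted p under 0.05 (edgeR), 7 higher and 3 lower. Of all genes tested, 74.2% were called in that comparison, 37.0% higher and 37.2% lower, and 81.6% of the 12400 genes averaging 100 counts or more were, so a call alone does not set these genes apart. The members' median log2 fold change was 0.40, against -0.01 over all genes. In ETS1-Low against RFP, 7 of 10 were called, 3 higher and 4 lower, where 74.1% of all genes were (37.9% higher, 36.2% lower), and the median was 0.02 against 0.01. In ETS1-High against ETS1-Low, 10 of 10 were called, 8 higher and 2 lower, where 59.2% of all genes were (29.9% higher, 29.3% lower) and 69.6% of those averaging 100 counts or more, and the median was 0.27 against a value of -4.67e-05. A change of at least 2-fold was reached by 4 members in ETS1-High against RFP (TNS1, TNS2, TNS3 and VCL; 21.0% of all genes), by 3 in ETS1-Low against RFP (TNS1, TNS2 and VCL; 20.6%) and by TNS3 alone in ETS1-High against ETS1-Low (9.74%). The comparisons against RFP share the RFP libraries, so their values are not independent. The members were picked with earlier results on TNS3 known.

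**Figure D3:**
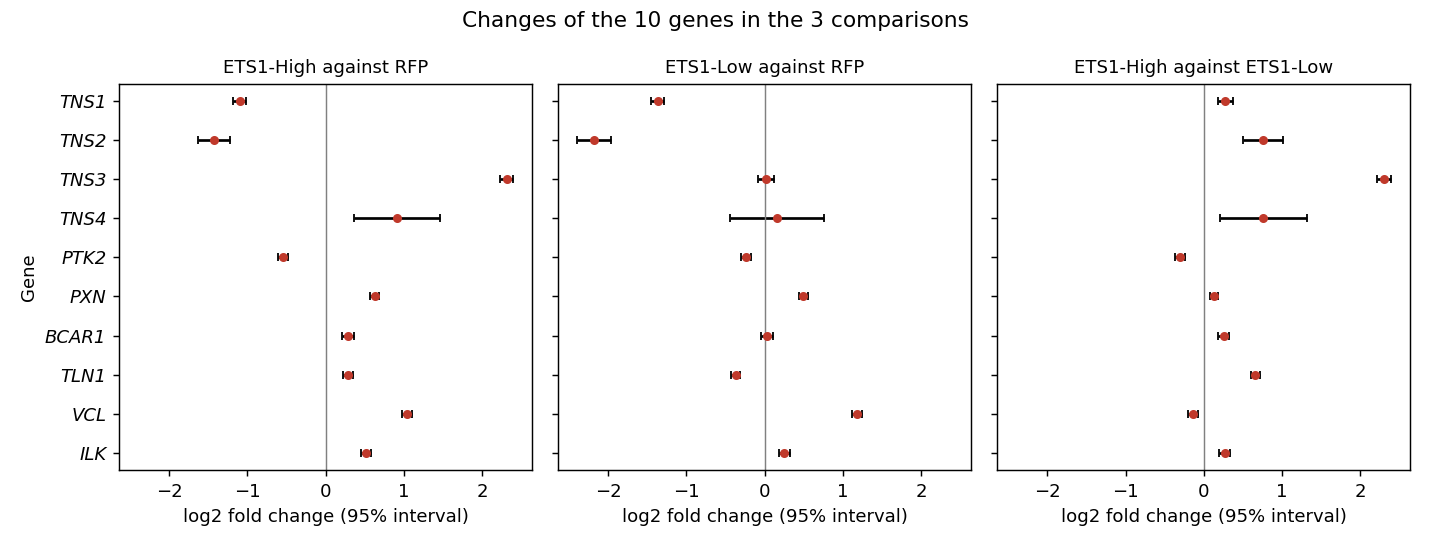
Log2 fold change (x axis) of each of the 10 genes in the 3 comparisons, one panel each; bars are 95% intervals from the edgeR fit. TNS3 lies at 2.31, 0.02 and 2.30, TNS1 and TNS2 lie below 0 against RFP in both ETS1 groups, VCL lies above 0 in both, and TLN1 changes side.

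The linkers between integrin and actin split. VCL encodes vinculin (ENSG00000035403.17; chromosome 10, 73995193 to 74121363, plus strand). It had 144, 153 and 146 CPM in RFP, 332, 335 and 337 CPM in ETS1-Low, and 314, 307 and 292 CPM in ETS1-High. Every ETS1 library stood above every RFP library, and ETS1-Low stood above ETS1-High. VCL rose 2.26-fold in ETS1-Low (log2 1.18, SE 0.03; adjusted p 1.29e-35, edgeR) and 2.06-fold in ETS1-High (log2 1.04, SE 0.03; adjusted p 2.57e-33, edgeR) against RFP. Between the ETS1 groups it was lower in ETS1-High, by a log2 change of -0.14 (SE 0.03; adjusted p 0.000117, edgeR), which limma on FPKM did not call (-0.09, adjusted p 0.0677). The 82 expressed genes within 10 Mb had medians of 0.27 in ETS1-Low and 0.05 in ETS1-High against RFP, and -0.31 between the ETS1 groups. VCL lay above those medians by 0.91 and 0.99 against RFP and by 0.17 in ETS1-High against ETS1-Low, where VCL itself was lower. The part of the region in these differences was not tested.

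TLN1 encodes talin 1 (ENSG00000137076.20; chromosome 9, 35696948 to 35732195, minus strand). Its levels were 363, 351 and 359 CPM in RFP, 276, 272 and 281 CPM in ETS1-Low, and 456, 437 and 418 CPM in ETS1-High. The groups did not overlap, and ETS1-Low and ETS1-High lay on opposite sides of RFP. TLN1 fell 1.29-fold in ETS1-Low (log2 -0.37, SE 0.03; adjusted p 1.51e-15, edgeR) and rose 1.22-fold in ETS1-High (log2 0.29, SE 0.03; adjusted p 5.1e-12, edgeR). The difference between the ETS1 groups was 0.66 (SE 0.03; adjusted p 1.28e-24, edgeR). Genes around TLN1 moved with it: 68 of 73 were lower in ETS1-Low than in RFP, with a median of -0.51, and 69 of 73 had more RNA in ETS1-High than in ETS1-Low, with a median of 0.42. TLN1 lay above those medians by 0.14 and 0.24. For ETS1-High against RFP the neighbours' median was -0.07, and TLN1 lay 0.36 above it.

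The signalling members came next. PTK2 encodes focal adhesion kinase, which phosphorylates paxillin and CAS (ENSG00000169398.19; chromosome 8, 140657900 to 141002216, minus strand). It had 206, 204 and 201 CPM in RFP, 175, 169 and 174 CPM in ETS1-Low, and 142, 136 and 139.9 CPM in ETS1-High. The libraries fell in that order without overlap. PTK2 fell 1.18-fold in ETS1-Low against RFP (log2 -0.24, SE 0.03; adjusted p 3.72e-10, edgeR), 1.46-fold in ETS1-High against RFP (log2 -0.55, SE 0.03; adjusted p 2.49e-22, edgeR) and 1.24-fold between the ETS1 groups (log2 -0.31, SE 0.03; adjusted p 1.31e-12, edgeR). Of the 79 expressed neighbours, 57 lay above 0 and 22 below in ETS1-Low against RFP, with a median of 0.27, and 72 of 79 had less RNA in ETS1-High than in ETS1-Low, with a median of -0.40. In ETS1-High against RFP their median was -0.16. PTK2 thus lay 0.51 below its neighbours in ETS1-Low against RFP, 0.39 below them in ETS1-High against RFP, and 0.10 above them between the ETS1 groups (differences of log2 fold changes of -0.51, -0.39 and 0.10).

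PXN encodes paxillin, the scaffold that focal adhesion kinase and vinculin dock on (ENSG00000089159.16; chromosome 12, 120210439 to 120265771, minus strand). Its level was 338, 338 and 341 CPM in RFP, 471, 475 and 486 CPM in ETS1-Low, and 527, 523 and 517 CPM in ETS1-High, a rise in order of the groups without overlap. It rose 1.41-fold in ETS1-Low (log2 0.49, SE 0.03; adjusted p 2.05e-21, edgeR) and 1.54-fold in ETS1-High (log2 0.62, SE 0.03; adjusted p 1.44e-25, edgeR) against RFP. The step from ETS1-Low to ETS1-High was 0.13 (SE 0.03; adjusted p 8.71e-05, edgeR). PXN was the most abundant member per length, at 118.3 ± 0.62, 154.8 ± 3.07 and 172.4 ± 3.32 FPKM in RFP, ETS1-Low and ETS1-High (SD, n = 3).

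BCAR1 encodes the CAS scaffold that Src and focal adhesion kinase phosphorylate and to which tensins have been linked (ENSG00000050820.16; chromosome 16, 75228181 to 75268053, minus strand). It had 49.9, 54.4 and 53.1 CPM in RFP, 53.5, 54.2 and 53.1 CPM in ETS1-Low, and 63.7, 65.7 and 62.1 CPM in ETS1-High. As with TNS3, RFP and ETS1-Low overlapped and ETS1-High stood above both, although the size was small. BCAR1 rose 1.22-fold against RFP (log2 0.28, SE 0.04; adjusted p 1.09e-09, edgeR) and 1.19-fold against ETS1-Low (log2 0.25, SE 0.04; adjusted p 4.4e-08, edgeR). ETS1-Low differed from RFP by 0.03 (interval -0.04 to 0.10, adjusted p 0.463, edgeR) on the counts. On the FPKM values, to which no TMM factors were applied, ETS1-Low was lower by a called -0.11 (adjusted p 0.0434, limma with a pseudocount of 1). The part of the TMM factors in this contrast was not tested.

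ILK encodes integrin-linked kinase (ENSG00000166333.13; chromosome 11, 6603708 to 6610874, plus strand). It had 62.1, 65.2 and 64.9 CPM in RFP, 77.0, 76.8 and 74.5 CPM in ETS1-Low, and 91.9, 93.9 and 88.4 CPM in ETS1-High. The groups rose in that order without overlap. ILK rose 1.19-fold in ETS1-Low (log2 0.25, SE 0.03; adjusted p 6.22e-09, edgeR) and 1.43-fold in ETS1-High (log2 0.51, SE 0.03; adjusted p 2.45e-19, edgeR) against RFP, and by 0.26 between the ETS1 groups (SE 0.03; adjusted p 1.4e-09, edgeR). The rise in ETS1-Low was not called on FPKM, used without TMM factors (0.07, adjusted p 0.107, limma). The 105 expressed genes around ILK had medians of 0.36 in ETS1-Low and 0.31 in ETS1-High against RFP and -0.05 between the ETS1 groups. The part of any region in these differences was not tested for TLN1, PTK2, VCL, ILK or TNS1. In bulk RNA, a change in the share of cells that express a gene and one in RNA per cell cannot be told apart.

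**Figure D4:**
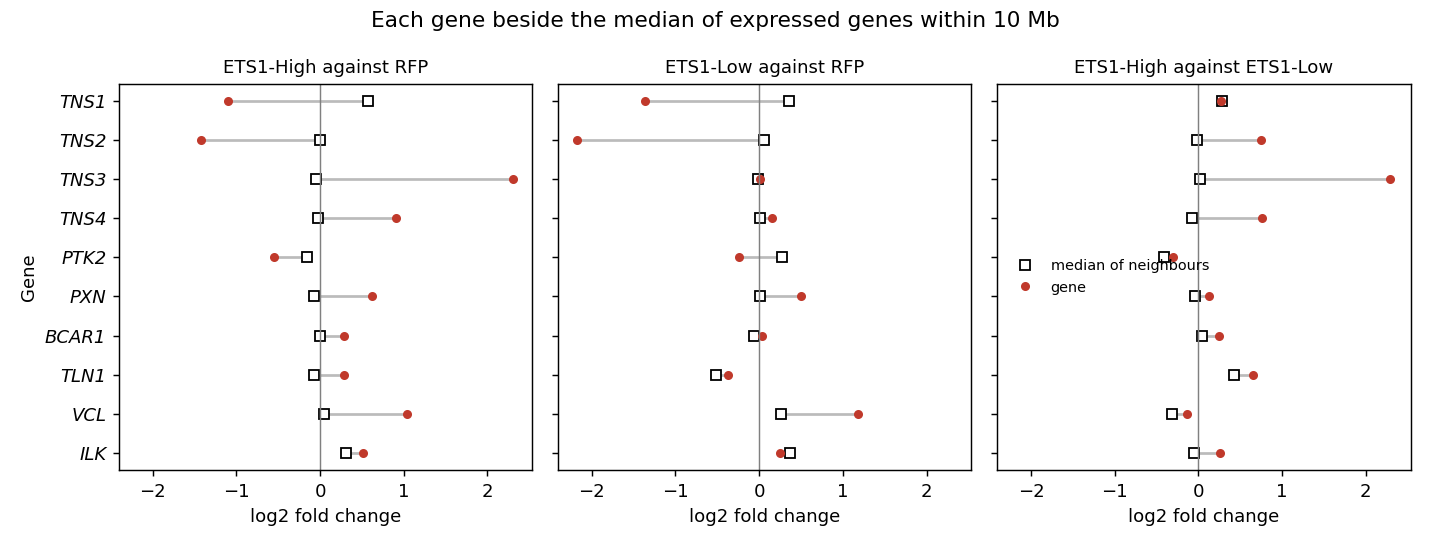
Log2 fold change of each gene (red points) beside the median of the expressed genes (mean log2 CPM above 1) that start within 10 Mb of it (open squares), one panel per comparison. For TNS3 the neighbours lie near 0 (medians -0.05, -0.01 and 0.02). For TLN1 and PTK2 the neighbours lie at 0.42 and -0.40 in ETS1-High against ETS1-Low, on the side to which the gene itself moved. Gene and neighbours lie on opposite sides for PTK2 in ETS1-Low against RFP (-0.24 and 0.27). The same holds for TLN1 in ETS1-High against RFP (0.29 and -0.07).

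Per length, the members kept a wide range. In RFP the order of mean FPKM was PXN (118.3), PTK2 (71.7), TLN1 (57.0), ILK (49.4), VCL (27.4), BCAR1 (20.1), TNS1 (9.66), TNS2 (4.49), TNS3 (3.45) and TNS4 (0.17). Every neighbouring pair in that order was separate in all 3 RFP libraries. The place of TNS2 above TNS3 depends on the length estimated for TNS2. By CPM the order was reversed, with 10.1 for TNS2 and 22.6 for TNS3 in RFP. In ETS1-High the order was PXN (172.4), TLN1 (66.7), ILK (63.4), VCL (52.2), PTK2 (47.7), BCAR1 (23.1), TNS3 (16.2), TNS1 (4.38), TNS2 (1.19) and TNS4 (0.37). There, ILK overlapped TLN1, at 61.4 to 65.7 against 65.4 to 68.9 FPKM. In ETS1-Low, TNS1 (3.05 to 4.12 FPKM) and TNS3 (3.18 to 3.30 FPKM) overlapped, and VCL stood in the third place with 55.8 FPKM, after PTK2 with 58.8. PTK2 went from the second place in RFP to the fifth in ETS1-High, and TNS3 from the ninth to the seventh.

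Genes whose profile over the 9 libraries was most like that of TNS3 were ranked by the Euclidean distance between centred log2 CPM profiles among 12391 genes. The nearest were IGFBP3 (distance 0.39, Pearson's r 0.993), APCDD1L (0.42, r 0.997), SLC1A7 (0.43, r 0.993), RP5-907D15.2 (0.50, r 0.992) and BCHE (0.52, r 0.988). These correlations run over 9 libraries in 3 groups and mostly restate the group means. IGFBP3, which binds insulin-like growth factors, had 9.09 ± 0.72 CPM in RFP, 8.01 ± 0.82 in ETS1-Low and 40.02 ± 1.66 in ETS1-High (SD, n = 3), and its start lies 1.66 Mb from that of TNS3 on chromosome 7. SLC1A7, a glutamate transporter gene, had 2.06 ± 0.14, 1.93 ± 0.34 and 10.6 ± 0.65 CPM in the same order, and BCHE, which encodes butyrylcholinesterase, 4.25 ± 0.06, 5.58 ± 0.24 and 24.2 ± 1.01 CPM. APCDD1L had 2.31 ± 0.12, 2.65 ± 0.16 and 14.4 ± 1.05 CPM. The noncoding RNA gene RP5-907D15.2 starts beside APCDD1L on the opposite strand of chromosome 20. The spans of these genes share only the bases from 58515379 to 58515399, and only reads there cannot be told apart.

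Other focal adhesion genes were taken from 5 lists by role, 79 genes of which 74 were tested. In ETS1-High against RFP 70 of them were called, 44 higher and 26 lower, with a median log2 fold change of 0.25 against -0.01 over all genes. In ETS1-Low against RFP 66 were called, 35 higher and 31 lower (median 0.12 against 0.01). In ETS1-High against ETS1-Low 55 were called, 39 higher and 16 lower (median 0.22 against -4.67e-05). These were 94.6%, 89.2% and 74.3% of the tested list genes, beside 74.2%, 74.1% and 59.2% of all genes. Among genes averaging 100 counts or more, 81.6%, 82.2% and 69.6% were called. Of all genes, 37.0% were higher and 37.2% lower in ETS1-High against RFP. In ETS1-Low against RFP these shares were 37.9% and 36.2%, and between the ETS1 groups 29.9% and 29.3%. The counts per list below stand beside the same shares, and a call alone does not set a list apart.

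Of the 10 kindlin and ILK complex genes, 8 rose and 2 fell in ETS1-High against RFP (median 0.89), 6 rose, 2 fell and 2 were not called in ETS1-Low against RFP (0.36), and 6 rose, 1 fell and 3 were not called between the ETS1 groups (0.39). LIMS2, encoding the ILK-binding protein PINCH2, had 2.07 ± 0.08 CPM in RFP, 5.49 ± 0.39 in ETS1-Low and 27.9 ± 1.69 in ETS1-High (SD, n = 3). Against RFP the log2 change in ETS1-High was 3.75 (adjusted p 1.71e-39, edgeR), and between the ETS1 groups it was 2.34 (adjusted p 2.46e-32, edgeR). LIMS1, encoding PINCH1, had 48.8 ± 1.59, 64.6 ± 0.42 and 91.9 ± 0.52 CPM, although its counts were not whole in any of the 9 libraries, so that some reads were shared with other genes. Counts were also not whole in 8 of 9 libraries for KANK2, in 7 for PXN, and in 5 each for TNS1, BCAR1, VCL and CSRP1. FERMT1, encoding kindlin-1, an activator of integrins beside talin, had 2.20 ± 0.26, 34.6 ± 1.81 and 38.5 ± 0.59 CPM and rose by 4.13 on the log2 scale from RFP to ETS1-High (adjusted p 1.4e-44, edgeR).

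Integrin subunits moved in both directions. Of 18 listed, 15 were tested, and in ETS1-High against RFP 9 rose and 6 fell (median 0.25). In ETS1-Low against RFP 5 rose, 8 fell and 2 were not called (median -0.12). Between the ETS1 groups 8 were higher, 5 lower and 2 not called, with a median of 0.63, or 0.51 with genes at 3 counts or fewer in a group set to the bound that such counts allow. ITGA4, a subunit of receptors for fibronectin and VCAM1, had 0.78 ± 0.17 CPM in RFP, 24.8 ± 0.62 in ETS1-Low and 48.3 ± 0.76 in ETS1-High. ITGA5, of the classical fibronectin receptor, fell from 139.9 ± 0.96 CPM to 53.0 ± 0.83 and 53.3 ± 0.99 CPM, and ITGA7, of a laminin receptor, from 59.3 ± 2.86 to 11.7 ± 0.68 and 10.3 ± 0.24 CPM (SD, n = 3).

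Among partners of FAK, paxillin and CAS, 21 were tested, of which 8 rose, 10 fell and 3 were not called in ETS1-High against RFP (median -0.09). In ETS1-Low against RFP 8 rose, 11 fell and 2 were not called (-0.07), and between the ETS1 groups 12 were higher, 2 lower and 7 not called (0.19). NEDD9, a CAS family scaffold like BCAR1, fell from 43.5 ± 1.18 CPM in RFP to 8.41 ± 0.25 in ETS1-Low and 9.45 ± 0.32 in ETS1-High, a log2 change of -2.20 in ETS1-High (adjusted p 1.75e-37, edgeR). The Src family kinase genes FYN and YES1 went in opposite directions, FYN from 54.4 ± 1.45 to 14.0 ± 1.29 and 18.3 ± 0.67 CPM and YES1 from 65.0 ± 1.83 to 110.4 ± 1.63 and 130.8 ± 2.40 CPM.

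Of 20 tested actin linkers of adhesions, 15 rose, 4 fell and 1 was not called in ETS1-High against RFP (median 0.45). With ETS1-Low against RFP, 12 rose, 7 fell and 1 was not called (0.25), and between the ETS1 groups 11 were higher, 6 lower and 3 not called (0.24). KANK1 and KANK2, which bind talin at the rim of adhesions, rose in order of the groups, KANK1 from 27.3 ± 0.72 to 97.3 ± 0.78 and 142.8 ± 3.03 CPM and KANK2 from 38.8 ± 0.66 to 69.7 ± 0.58 and 103.4 ± 2.27 CPM. CSRP1, a LIM protein of the actin cytoskeleton, had 181.6 ± 9.53, 212.9 ± 4.69 and 570.1 ± 14.5 CPM (SD, n = 3).

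Of 8 tensin-binding proteins, 4 rose and 4 fell in ETS1-High against RFP (median 0.05). For ETS1-Low against RFP, 4 rose, 3 fell and 1 was not called (0.04), and between the ETS1 groups 2 were higher, 2 lower and 4 not called. The receptor kinase gene AXL had 18.0 ± 0.38 CPM in RFP, 17.6 ± 1.34 in ETS1-Low and 9.31 ± 0.28 in ETS1-High (SD, n = 3). It fell by 0.95 on the log2 scale from RFP to ETS1-High (adjusted p 8.49e-19, edgeR). Between ETS1-Low and RFP the log2 fold change was -0.04 (adjusted p 0.552, edgeR), with libraries that overlapped. On FPKM, used without TMM factors, that difference was called, at -0.22 (adjusted p 0.0166, limma with a pseudocount of 1). CBL, encoding a ubiquitin ligase, had 89.0 ± 2.93, 99.5 ± 2.28 and 108.1 ± 4.4 CPM.

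**Figure D5:**
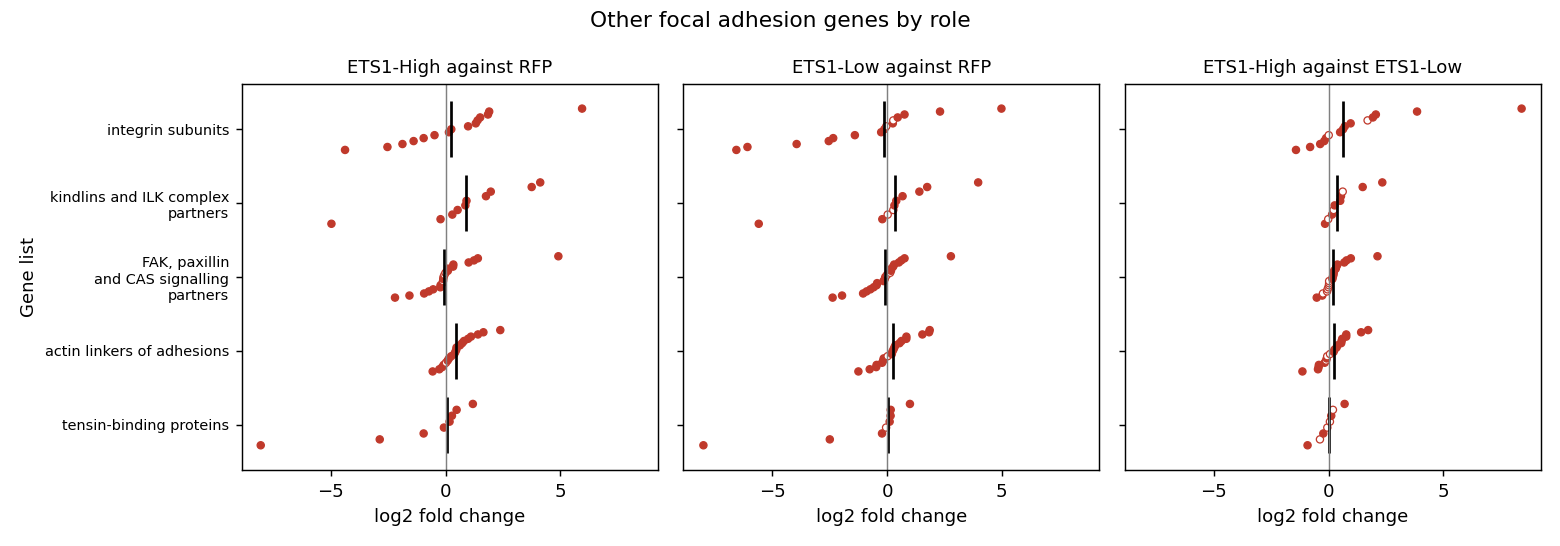
Log2 fold change (x axis) of the tested genes of 5 focal adhesion lists (rows) in the 3 comparisons; filled points were called at an adjusted p under 0.05, open points were not, and black lines are list medians. Genes with very few counts in a group lie at fitted values that are no measure of size; the medians in ETS1-High against RFP run from -0.09 to 0.89.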

How the data were processed

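The authors deposited RSEM expected counts and RSEM FPKM values per gene, per the file headers. The submitters' processing notes name GRCh38, cutadapt 4.4, STAR 2.7.3, featureCounts, Subread 2.0.3 and limma 3.38.3 without saying what each did. The RSEM version and the annotation release are not given in the sources used here. Columns were matched to libraries by name, with L and H read as Low and High, and 0 columns were left over. Expected counts were rounded and tested with the edgeR 4.0.16 quasi-likelihood test in R 4.3.3 (robust, TMM, filterByExpr by group, 9 libraries in 1 fit, group as the only factor). Adjustment was by Benjamini-Hochberg over 17235 genes, with calls under 0.05. The procedure was tested on simulated data. Intervals are 95% and cover the spread between libraries.

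The mean chi-square per gene between libraries of a group was 2.66 to 5.19, above the sampling noise of about 1, so no library was taken as a copy of another. Positions and neighbours come from GENCODE v44, matched by gene identifier; neighbours are tested genes other than members with a mean log2 CPM above 1 that start within 10 Mb. The named genes are the 10 members, ETS1, the 3 most significant genes of each of 5 pathway lists (ETS1-High against RFP, mean count 100 or more), and the 5 genes nearest to TNS3. The members and lists were chosen with earlier results of these data known. The count of GGAAGGAA was added after the data were seen. Protein sequences were not used here. Alternatives tried were other normalisations and filters, the DESeq2 1.42.0 Wald test, a replicate block, fits of the groups compared alone, leaving out each library, limma 3.58.1 on log2(FPKM + 1) or log2(FPKM + 0.1), CPM in place of FPKM for the tensin shares, and a 5 Mb window. The limma fits took the deposited FPKM without TMM factors.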

Additional observations from a re-analysis of the deposited data

Results flagged for a closer look

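Of the 31 genes named, 29 differed between ETS1-High and ETS1-Low in the edgeR test, all 10 members among them. Of all genes tested 59.2% were called in that comparison, and 69.6% of those averaging 100 counts or more, and many of the 31 were named for a small p or for a profile like that of TNS3, so the count says nothing particular about them. The log2 fold changes in ETS1-High against ETS1-Low, positive where ETS1-High was higher, were 0.27 for TNS1, 0.75 for TNS2, 2.30 for TNS3, 0.76 for TNS4, -0.31 for PTK2, 0.13 for PXN, 0.25 for BCAR1, 0.66 for TLN1, -0.14 for VCL and 0.26 for ILK. ETS1 itself differed by 0.85. Among integrin subunits they were 0.96 for ITGA4 and -0.19 for ITGA7, and among kindlins and ILK partners 0.15 for FERMT1, 2.34 for LIMS2 and 0.51 for LIMS1. Signalling partners gave 0.17 for NEDD9, 0.39 for FYN and 0.24 for YES1, actin linkers 0.55 for KANK1, 1.42 for CSRP1 and 0.57 for KANK2, and tensin-binding proteins -0.91 for AXL and 0.12 for CBL. For the genes nearest to TNS3 in profile, which were chosen for this pattern, they were 2.32 for IGFBP3, 2.44 for APCDD1L, 2.46 for SLC1A7, 2.34 for RP5-907D15.2 and 2.12 for BCHE.

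TLN1 was the member called in opposite directions against RFP, lower in every ETS1-Low library and higher in every ETS1-High library. ITGA5 and STARD13 were the named genes without a called difference, and STARD13 (adjusted p 0.0565, edgeR) was called under 7 alternatives.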

How the results depend on the processing

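Of 480 log2 fold changes of the members recomputed under count-based alternatives, 477 kept their call, and the other 3 were those of TNS4 between the ETS1 groups. With FPKM, 71 of 84 kept it, 11 lost it and 2 turned direction with a call in the main or the alternative test: BCAR1 in ETS1-Low against RFP was -0.11 with a pseudocount of 1 and -0.12 with 0.1. A change of sign without a call in either test, as for TNS3 in ETS1-Low against RFP, was counted as kept. TNS4 has no value under a mean FPKM of at least 1. The number of members called in ETS1-High against ETS1-Low was 10, and 6 with limma on FPKM without a filter; leaving out a library gave 9 to 10. On FPKM with a filter, integrin subunits called numbered 7, 8 and 7 (ETS1-High against RFP, ETS1-Low against RFP, ETS1-High against ETS1-Low) and tensin-binding proteins 5 and 3 in the first and second of these; fewer genes were tested, and some tested genes, such as CBL in ETS1-Low against RFP (0.027, adjusted p 0.666), lost their call. Of 1197 values of the other named genes, 1156 kept their call and 0 turned direction in the sense given for the members. The FPKM values were used as deposited, without the TMM factors of the count test. Those factors were 1.046 to 1.068 in RFP, 0.9579 to 0.9685 in ETS1-Low and 0.9743 to 0.9868 in ETS1-High. Their part in these changes, or any other cause, was not tested.

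No pairing of the libraries by replicate number was seen: same-numbered libraries of different groups deviated together at r of -0.0933 to 0.112. Libraries with different numbers gave -0.137 to 0.0932. With 3 libraries per group, these values cannot exclude pairing. With the replicate block, 10, 7 and 10 members were called, as without it, and in 92 of 93 fold changes the call stayed; the exception, STARD13 between the ETS1 groups (0.19, adjusted p 0.0475), passed with it. STARD13 passed there under 7 alternatives in all (adjusted p 0.00945 to 0.0489) and lies at the threshold. Of 9 libraries, 1 correlated best with its own number in both other groups.

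Not scaled to length, the tensin shares in RFP, ETS1-Low and ETS1-High were 71.2%, 55.4% and 24.8% for TNS1, 8.76%, 3.90% and 2.43% for TNS2, and 0.40%, 0.90% and 0.57% for TNS4, and those of TNS3, at 19.6%, 39.8% and 72.2%, moved by less than 1 SD. In RFP this put TNS3 above TNS2, the reverse of the FPKM order. Within 5 Mb, 7 of 30 medians of neighbours moved by less than their spread over libraries and 23 by more, at most by 0.103. In ETS1-High against ETS1-Low these medians were 0.25 for TNS1, -0.029 for TNS2, -0.017 for TNS3, -0.053 for TNS4, -0.086 for PXN, 0.030 for BCAR1, 0.44 for TLN1, -0.36 for VCL and -0.0091 for ILK. In ETS1-High against RFP these medians were -0.011 for TNS2, -0.0075 for TNS4, -0.087 for PXN, -0.10 for BCAR1, 0.072 for VCL and 0.26 for ILK. In ETS1-Low against RFP these medians were 0.035 for TNS2, -0.025 for TNS3, 0.00079 for TNS4, 0.29 for PTK2, -0.10 for BCAR1, -0.48 for TLN1, 0.36 for VCL and 0.33 for ILK. TNS4, with 18 to 46 counts per library, is the member that depth limits.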
